A study of Homo sapiens with 12 samples.

Results

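Ribosome assembly and nucleolar genes were followed in HCT116 TIM-mAID cells, a human colorectal cancer line. The set holds 41 genes, chosen by symbol from a list of nucleolar assembly factors and RNA polymerase I genes. All 41 were found among the 62700 genes of the deposited table, and all 41 were among the 18049 that passed the filter on low counts. The choice used no measured value as a criterion, but it was made with earlier results of these data known.

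A mini-auxin-degron (mAID) tag was knocked in by CRISPR in every group, DMSO cells included, and the cell line name places it on TIM (TIMELESS, a replication fork protein). 5-Ph-IAA is the auxin analogue that triggers degradation of a tagged protein. ATRi is ceralasertib, an inhibitor of the checkpoint kinase ATR. The 4 groups had 3 libraries each, all collected at 40 h: 5-Ph-IAA/ATRi (both agents, each at 1 µM, called the combination below), ATRi at 1 µM, 5-Ph-IAA at 1 µM, and DMSO, the solvent. The 3 libraries of a group carry set numbers 1 to 3 and come from separate biological replicates of this 1 line. TIMELESS RNA was present in all groups, at 17.6 to 24.5 CPM (counts scaled to a common library size, with TMM factors) in the combination, 30.3 to 46.9 CPM with ATRi, 39.5 to 63.0 CPM with 5-Ph-IAA and 30.5 to 67.9 CPM with DMSO. The degron acts on protein, so these values do not check the labels.

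Ribosomes are assembled in the nucleolus, where RNA polymerase I transcribes one long precursor of the 18S, 5.8S and 28S rRNAs. Small nucleolar ribonucleoproteins (snoRNPs) modify that precursor, and separate sets of factors fold and cut it into the small and the large subunit. Impaired assembly releases a 5S particle of RPL5 and RPL11 that binds the ubiquitin ligase MDM2, and many assembly genes carry the E-box CACGTG, to which MYC and its partner MAX bind.

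Library totals were 27.7 to 34.7 M (mega counts), as estimated counts, and mitochondrially encoded genes held 6.63% to 14.9% of them. The mitochondrial share averaged 12.2% in the combination, 10.6% with ATRi, 10.1% with 5-Ph-IAA and 9.81% with DMSO. It ranged from 10.7% to 13.9% in the combination and from 6.63% to 14.9% with DMSO, so the groups overlapped. Of 7 colorectal epithelial markers, 6 were detected, and VIL1 stayed under 1 CPM in every library. They moved with the treatment: their summed level was 9993 to 11436 CPM in the combination and 4294 to 6384 CPM with DMSO. KRT8 (1.35), KRT18 (1.04) and KRT19 (0.89), keratins of simple epithelia, rose on the log2 scale. These were 3 of 6 tested (all genes 6.24%), and 0 fell (all genes 6.89%). Of 10 markers of leukocytes, fibroblasts, endothelium and hepatocytes, 7 stayed under 1 CPM in every library. Their summed level was 47.4 to 73.0 CPM in the combination and 36.6 to 109 CPM with DMSO, most of it the collagen gene COL1A1. Of the 5 tested, CD14, a monocyte marker, was called higher. It had 0.752, 0.654 and 0.497 CPM in the combination and 0.124, 0.141 and 0.085 CPM with DMSO. Its DMSO values lie below the filter's minimum count of 10. CD14 was thus tested only because other libraries held more, and its call carries no weight. Counts from a fit with the mitochondrial share as a covariate are given below. The part of these markers in the results was not tested.

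Promoter sequences were at hand for 35 of the 41 genes in the RefSeq promoter set (GRCh38.p14, 250 bases before the transcription start to 50 after it). The E-box CACGTG, which reads the same on both strands, occurred in 13 of 35 (37.1%), against 1194 of the 12037 tested genes with a promoter in that set (9.92%). Within 50 bases of the start it occurred in 12 of 35 (34.3%), against 474 of 12037 (3.94%). In those 12 its first base lay between positions -16 and 36, with the start base counted as 1 and the base before it as -1. CACGCG, searched on both strands, occurred in 34.3% of the member promoters and 17.6% of the 12037, and CGGAAG, the core of many ETS factor sites, in 51.4% and 31.2%. CACGTG can share no base with those motifs, whereas CACGCG and CGGAAG can overlap each other. A match describes the letters and does not show binding. The 100 bases around the start of 5 genes follow, 5′ to 3′ on the coding strand, with CACGTG in capitals. BYSL, PES1 and NOL6 were among the genes that rose in the combination, and FBL and UTP20, which carry the same 6 letters, were not called.
BYSL: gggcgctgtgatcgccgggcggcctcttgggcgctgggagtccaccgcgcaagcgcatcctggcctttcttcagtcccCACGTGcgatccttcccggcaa
PES1: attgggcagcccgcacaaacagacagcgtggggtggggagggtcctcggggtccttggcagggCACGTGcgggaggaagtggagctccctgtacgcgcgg
NOL6: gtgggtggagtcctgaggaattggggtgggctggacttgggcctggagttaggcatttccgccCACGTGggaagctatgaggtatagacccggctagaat
FBL: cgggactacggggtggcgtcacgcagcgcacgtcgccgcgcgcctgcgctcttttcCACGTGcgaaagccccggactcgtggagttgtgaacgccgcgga
UTP20: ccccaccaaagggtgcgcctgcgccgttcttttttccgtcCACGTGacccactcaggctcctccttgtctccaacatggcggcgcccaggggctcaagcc
These windows are chr6:41921449-41921548 on the plus strand for BYSL, chr22:30591861-30591960 on the minus strand for PES1, chr9:33473875-33473974 on the minus strand for NOL6, chr19:39846330-39846429 on the minus strand for FBL and chr12:101280055-101280154 on the plus strand for UTP20. The motif began at position 29 in BYSL, 14 in PES1, 14 in NOL6, 7 in FBL and -10 in UTP20. For BYSL and PES1 the start in the promoter set lies inside the gene span given below, downstream of its 5′ end.

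Levels per length spanned a wide range among the 41 genes. Divided by the length of the longest GENCODE 29 transcript, the mean level over all 12 libraries was highest for NPM1 (nucleophosmin, a nucleolar chaperone) at 1081 CPM per kb. NCL (nucleolin) followed at 308 CPM per kb, then FBL at 151, NOP10 at 151 and GNL3 at 131 CPM per kb. The lowest were WDR12 at 8.17, UTP15 at 7.76, POLR1A at 5.47 and UTP20 at 2.97 CPM per kb. Several members host snoRNAs in their introns: 8 of 41 (19.5%) contained at least 1 annotated snoRNA on the same strand, 33 in all, against 215 of 13869 tested coding genes (1.55%). TAF1D held 8, GNL3 6 and NOP56 5.

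**Figure D1:**
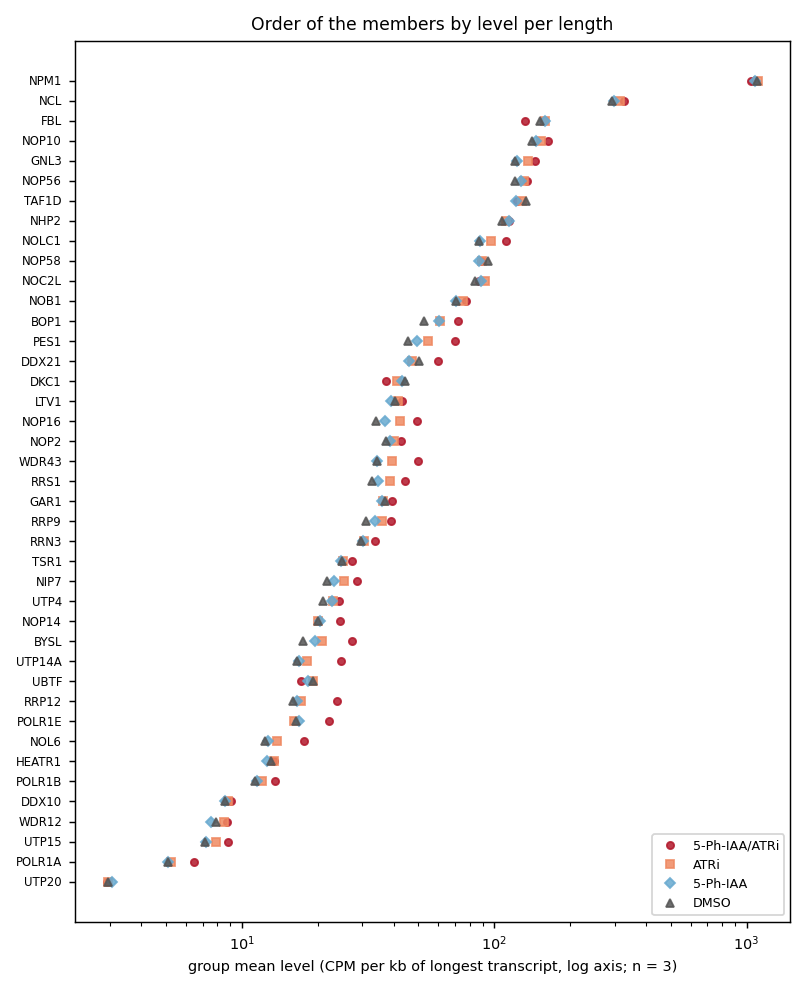
Group mean level of each of the 41 genes, in CPM per kb of the longest transcript on a log axis, with 1 marker per group (n = 3 libraries each). NPM1 sits at the top with 1081 CPM per kb over all libraries and UTP20 at the bottom with 2.97, and the 4 groups lie close together for each gene.

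All members together took 0.806% ± 0.0557 of the counts in the combination, 0.784% ± 0.0415 with ATRi, 0.761% ± 0.0454 with 5-Ph-IAA and 0.755% ± 0.0835 with DMSO (SD, n = 3). The Wilson 95% interval of each library's share was at most 0.0034 percentage points either side, counting error only. Single libraries ranged from 0.756% to 0.866% in the combination and from 0.659% to 0.813% with DMSO, so these summed shares overlapped. In bulk RNA, fewer cells with a transcript and less of it per cell cannot be told apart.

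In the combination against DMSO, a minority of the assembly genes rose and none fell. The test was edgeR's quasi-likelihood test with Benjamini-Hochberg adjustment over all 18049 genes (threshold 0.05). By it 6 of 41 rose (14.6%), against 6.24% of all genes tested, and 0 of 41 fell, against 6.89%. In either direction 13.1% of all genes were called, close to the 14.6% of the members. At an unadjusted p under 0.05 there were 13 members (31.7%), against 26.8% of all genes. The median SE was 0.15 for the members and 0.25 over all genes tested. The 6 that rose were BYSL, PES1, RRP12, UTP14A, NOP16 and NOL6, with log2 fold changes of 0.52 to 0.65. The median over the 41 genes was 0.20 (range -0.24 to 0.65), with 34 positive and 7 negative, beside a median of -0.02 over all genes tested. All 3 combination libraries lay above all 3 DMSO libraries for 15 members (36.6%; all genes 16.4%), and below them for 0 (all genes 15.9%).

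**Figure D2:**
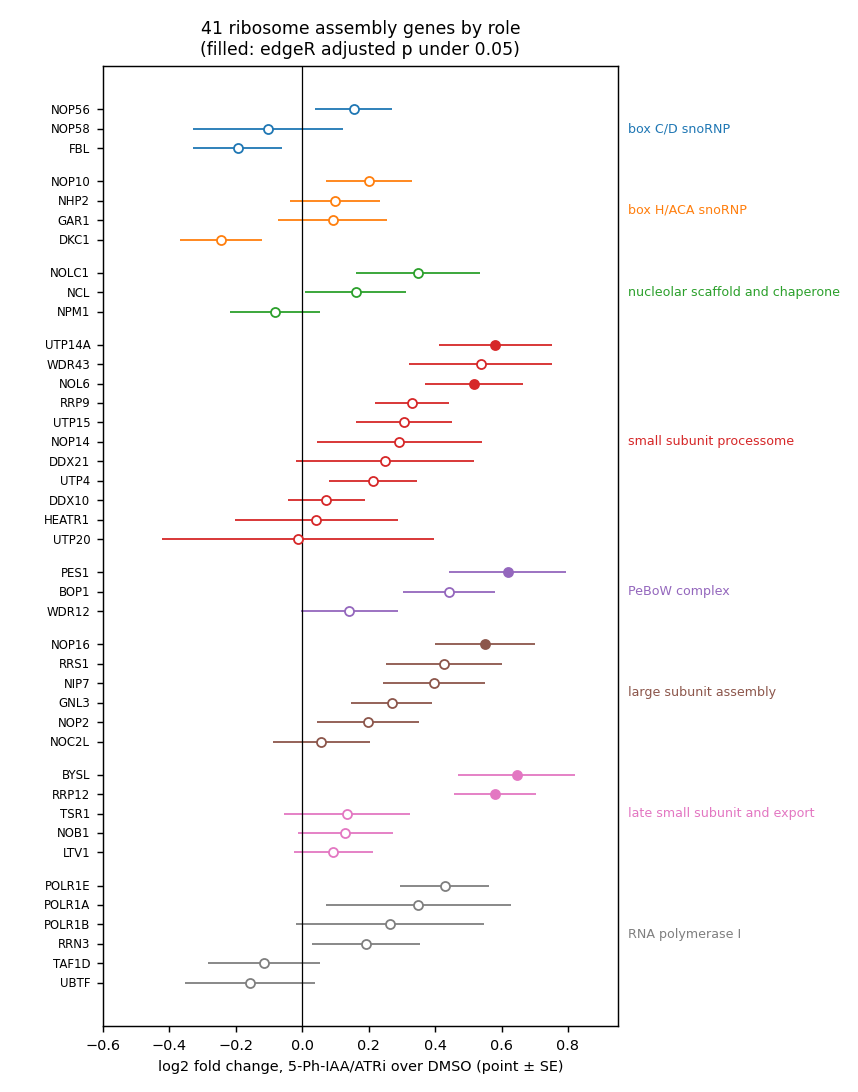
Log2 fold change of each of the 41 genes in the combination over DMSO (point, with a bar of ± 1 SE), grouped by role; filled points have an edgeR adjusted p under 0.05. The 6 filled points lie between 0.52 and 0.65, and the 7 genes left of 0 are all open.

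Late small subunit factors held 2 of the 6, from 5 genes tested, against 6.24% of all genes higher. Counts by role, here and below, rest on few genes and were given no test. RRP12 (chr10:97356357-97401370), a HEAT-repeat protein needed for maturation and export of the small subunit, had 104, 97.2 and 118 CPM in the combination, 76.9, 74.0 and 79.7 CPM with ATRi, 72.7, 83.7 and 65.6 CPM with 5-Ph-IAA and 69.8, 76.8 and 66.9 CPM with DMSO. Every combination library stood above the other 9. Its log2 fold change over DMSO was 0.58 ± 0.12 (SE; edgeR adjusted p = 0.0101). BYSL (bystin, chr6:41908759-41933046), which binds the pre-small-subunit particle, had 49.3, 54.2 and 62.3 CPM in the combination and 36.7, 27.5 and 41.9 CPM with DMSO. These groups did not overlap, and the change was 0.65 ± 0.18 (edgeR adjusted p = 0.0330). NOB1, the endonuclease that makes the final cut of 18S rRNA, had 125, 144 and 133 CPM in the combination and 123, 119 and 126 CPM with DMSO (0.13 ± 0.14, not called). TSR1 and LTV1, which act on the same particle, were at 0.13 and 0.09.

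The small subunit processome, the particle that forms on the nascent precursor, had 11 genes in the list. Of these, 2 rose (all genes 6.24%), and the median was 0.29. NOL6 (chr9:33461353-33473924), the human counterpart of yeast Utp22, had 66.2, 58.7 and 78.4 CPM in the combination and 47.9, 46.0 and 48.1 CPM with DMSO. Its DMSO libraries were tight, and all combination libraries stood above them (0.52 ± 0.15, edgeR adjusted p = 0.0402). UTP14A (chrX:129906164-129929752), whose yeast counterpart activates a helicase of the processome, had 51.1, 63.2 and 70.4 CPM in the combination and 44.8, 37.9 and 40.7 CPM with DMSO. The groups did not overlap (0.58 ± 0.17, edgeR adjusted p = 0.0447). Its estimates were fractional in 11 of 12 libraries, so reads may have been split with another transcript. DDX21, an RNA helicase and the member of this group with the most RNA per length, had 245, 250 and 374 CPM in the combination and 242, 189 and 300 CPM with DMSO (0.25 ± 0.27, not called). RRP9, a protein of the U3 snoRNP, was just outside the threshold at 0.33 ± 0.11 (edgeR adjusted p = 0.0741). WDR43 had a larger but more variable difference, 0.54 ± 0.22 (edgeR adjusted p = 0.135).

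Of the large subunit factors, 2 of 9 rose (all genes 6.24%). The PeBoW complex of PES1, BOP1 and WDR12, which is needed for processing of 28S and 5.8S rRNA, held 1 of them. PES1 (pescadillo, chr22:30576625-30607013) had 163, 189 and 224 CPM in the combination and 134, 100 and 142 CPM with DMSO. The lowest combination library stood above the highest DMSO library (0.62 ± 0.18, edgeR adjusted p = 0.0409). Its partner BOP1 had 175, 155 and 164 CPM in the combination and 123, 113 and 128 CPM with DMSO, also without overlap, and was just outside the threshold (0.44 ± 0.14, edgeR adjusted p = 0.0579). WDR12 was at 0.14 ± 0.15. NOP16 (chr5:176383946-176388598), a nucleolar factor of the large subunit, had 62.8, 66.4 and 57.9 CPM in the combination and 41, 46.0 and 40.9 CPM with DMSO. Here too the groups stood apart (0.55 ± 0.15, edgeR adjusted p = 0.0341). GNL3 (nucleostemin, a nucleolar GTPase) had 280, 332 and 278 CPM in the combination and 267, 240 and 232 CPM with DMSO, without overlap, at 0.27 ± 0.12 (edgeR adjusted p = 0.183). NIP7 at 0.40, RRS1 at 0.43, NOP2 (an rRNA methyltransferase) at 0.20 and NOC2L at 0.06 were positive and not called.

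The snoRNP proteins and nucleolar scaffolds had 0 of 10 genes called, against 13.1% of all genes in either direction. With 10 genes, this count does not set them apart from all genes. Of the 7 negative values, 4 were theirs. FBL (fibrillarin, chr19:39834458-39846379), the methyltransferase of box C/D snoRNPs, had 132, 161 and 170 CPM in the combination and 177, 158 and 194 CPM with DMSO. DKC1 (dyskerin), the pseudouridine synthase of box H/ACA snoRNPs, had 110, 105 and 130 CPM in the combination and 139, 127 and 143 CPM with DMSO. Both pairs of groups overlapped, at -0.19 ± 0.13 for FBL (edgeR adjusted p = 0.397) and -0.24 ± 0.12 for DKC1 (edgeR adjusted p = 0.228). NOP10, the smallest H/ACA protein, had 89.9, 103 and 78.2 CPM in the combination and 79.2, 81.5 and 74.9 CPM with DMSO. NPM1 had 1738, 1950 and 1783 CPM in the combination and 2059, 1920 and 1816 CPM with DMSO, and NOLC1, a snoRNP chaperone, had 398, 404 and 520 CPM in the combination and 371, 267 and 399 CPM with DMSO. Neither gene was called (NPM1 -0.08 ± 0.13, NOLC1 0.35 ± 0.19). NPM1 estimates were fractional in all 12 libraries, with the same limit as for UTP14A.

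**Figure D3:**
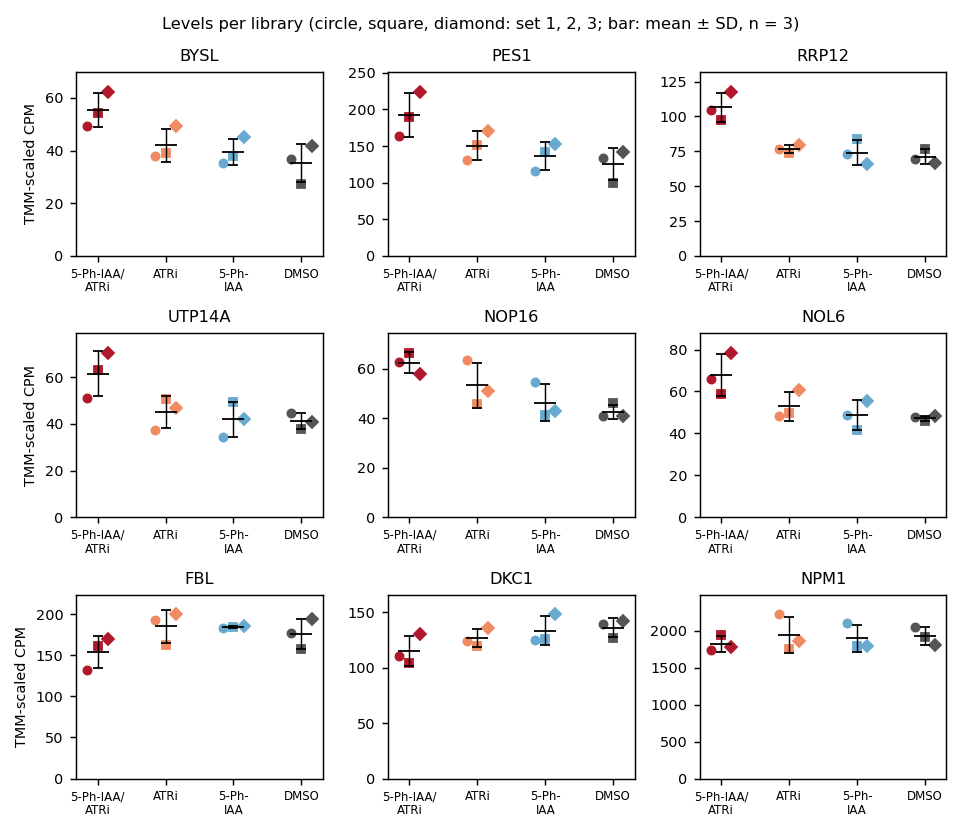
TMM-scaled CPM in each library for 6 genes that rose in the combination and for FBL, DKC1 and NPM1, which were not called; circle, square and diamond are sets 1, 2 and 3, and the bar is the mean ± SD (n = 3). In the top 6 panels the combination libraries sit above the DMSO libraries, whereas in the bottom row the combination and DMSO libraries overlap.

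RNA polymerase I genes had 0 of 6 called, against 13.1% of all genes in either direction. Their median was 0.23, beside 0.20 over all 41 members, so the count does not set this role apart. POLR1E (PAF53, a subunit of the polymerase) had 43.8, 48.0 and 56.1 CPM in the combination, 35.2, 33.4 and 39.1 CPM with ATRi, 34.2, 36.9 and 41.4 CPM with 5-Ph-IAA and 38.8, 32.3 and 38.7 CPM with DMSO. Every combination library stood above the other 9, yet the test fell just short (0.43 ± 0.13, edgeR adjusted p = 0.0574). TAF1D, a subunit of the promoter selectivity factor SL1, had 247, 279 and 243 CPM in the combination and 277, 336 and 219 CPM with DMSO, which overlapped (-0.12 ± 0.17). The catalytic subunit POLR1A was at 0.35 ± 0.28, POLR1B at 0.26 ± 0.28, the initiation factor RRN3 at 0.19 ± 0.16 and the transcription factor UBTF at -0.16 ± 0.20, none of them called.

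The count of 6 depended on single libraries. It was 3 without combination 1, 2 without combination 2, 1 without combination 3, 3 without ATRi 2 (which enters through the shared spread), 1 without DMSO 1, 2 without DMSO 2 and 3 without DMSO 3. The share of all genes called higher also fell in these 7 fits, to between 3.17% and 5.84%. RRP12 remained called in each of the 12 fits that left out 1 library, and no member was called lower in any of them. With the mitochondrial share as a covariate, 20 of 41 rose and 0 fell, but 35.7% of all genes were then called, 3183 higher (17.6%) and 3266 lower.

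The genes whose promoters hold CACGTG had a median log2 fold change of 0.29 in this comparison (13 genes), and those searched without it 0.14 (22 genes). Of the 6 genes that rose, 5 had a promoter sequence and 4 of these held the motif. This is a description of the members and was given no test.

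Against 5-Ph-IAA alone, RRP12 was the 1 member of 41 past the threshold (2.44%), against 4.38% of all genes higher, and 0 fell, against 5.04% (9.41% in either direction). The test gave 0.52 ± 0.12 (edgeR adjusted p = 0.0215). The median over the members was 0.17, beside -0.01 over all genes. UTP14A (0.55 ± 0.17, edgeR adjusted p = 0.0673) and NOL6 (0.47 ± 0.15, edgeR adjusted p = 0.0703) came next. The combination stood wholly above 5-Ph-IAA for 9 members (22.0%; all genes 13.6%) and wholly below for 1, FBL (all genes 14%), whose 5-Ph-IAA libraries had 184, 184 and 186 CPM. The call of RRP12 was lost without combination 1, combination 3, 5-Ph-IAA 1 or 5-Ph-IAA 3. For this pair of groups, libraries of the same set deviated together, and with the set as a block 9 of 41 rose, against 9.15% of all genes called higher (19.6% in either direction).

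Against ATRi alone, 0 of 41 members passed the threshold, against 3.51% of all genes in either direction (1.63% higher, 1.88% lower). The median was 0.11, beside -0.00 over all genes, and the combination stood wholly above ATRi for 6 members (14.6%; all genes 12.9%) and wholly below for 0 (all genes 14%). RRP12 at 0.47 ± 0.12 (edgeR adjusted p = 0.0616) and POLR1E at 0.46 ± 0.13 (edgeR adjusted p = 0.0926) came nearest. At an unadjusted p under 0.05 there were 5 members (12.2%), against 16.5% of all genes. DESeq2 called 2 higher, RRP12 and POLR1E, against 3.72% of all genes higher and 8.09% in either direction.

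Neither agent alone gave a call. With ATRi against DMSO, 0 of 41 passed, against 0.0665% of all genes. The members lay between -0.11 and 0.32 with a median of 0.10, beside -0.02 over all genes. Here too 34 were positive and 7 negative, the same split as for the combination over DMSO. The groups stood apart upward for 1 member, RRP9 (all genes 4.73%), and downward for 0 (all genes 4.07%). NOP16 was the highest, at 63.5, 45.7 and 50.8 CPM with ATRi beside its DMSO values of 41, 46.0 and 40.9 CPM (0.32 ± 0.15). With 5-Ph-IAA against DMSO, 0 of 41 passed, against 0.00554% of all genes, with a median of 0.03 and a range of -0.14 to 0.20. Of these members, 26 were positive and 15 negative. The groups stood apart upward for 0 members (all genes 1.99%) and downward for 0 (all genes 1.38%). For both, 0 members had an unadjusted p under 0.05, against 4.86% of all genes for ATRi and 1.32% for 5-Ph-IAA, and DESeq2 called 0. Both comparisons share their DMSO libraries with each other and with the combination.

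The interaction term sets the change in the combination against the added log2 changes of ATRi alone and 5-Ph-IAA alone. It called 0 of 41 members, against 0.0776% of all genes (0.0111% higher, 0.0665% lower). RRP12 (0.41 ± 0.17, edgeR adjusted p = 0.637) and POLR1E (0.42 ± 0.19, edgeR adjusted p = 0.671) were the 2 with an unadjusted p under 0.05 (4.88%), against 7.3% of all genes, and DESeq2 called 0. Departure from additivity was thus not shown for any member, which does not show that the changes add up.

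**Figure D4:**
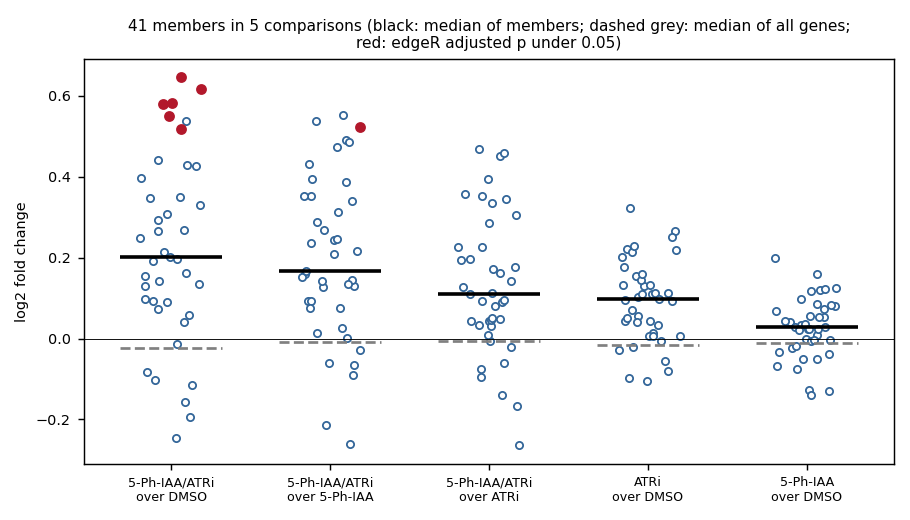
Log2 fold changes of the 41 genes (points) in 5 comparisons, with the median marked. The medians are 0.20 for the combination over DMSO, 0.17 over 5-Ph-IAA and 0.11 over ATRi, 0.10 for ATRi over DMSO and 0.03 for 5-Ph-IAA over DMSO; the comparisons share libraries.

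Differences between libraries of one group went with transcript length among these genes. UTP20, a very large processome protein, had 23.6, 21.5 and 34.2 CPM in the combination, 19.1, 23.8 and 36.6 CPM with ATRi, 17.7, 21.5 and 43.7 CPM with 5-Ph-IAA and 28.6, 13.9 and 37.4 CPM with DMSO. Its highest library stood 2.7-fold above its lowest with DMSO, and its change in the combination was -0.01 ± 0.41. For NOL6 the same ratio with DMSO was 1.05. When the library with the lowest mitochondrial share of each group was set over the one with the highest, the log2 ratio and log2 transcript length had Pearson's r over the 41 genes of 0.59 in the combination, 0.69 with ATRi, 0.74 with 5-Ph-IAA and 0.58 with DMSO. Over 13869 tested coding genes r was 0.32, 0.35, 0.40 and 0.30 in the same order of groups. These correlations are across genes of 2 libraries, which are not replicates of a condition, and carry no test. Members over 4 kb (13 genes) had median log2 ratios of 0.25, 0.39, 0.50 and 0.53 in that order, and members under 2 kb (10 genes) of 0.02, -0.18, -0.25 and -0.10. The log2 fold change of the combination over DMSO had r = -0.00 with length over the 41 genes.

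**Figure D5:**
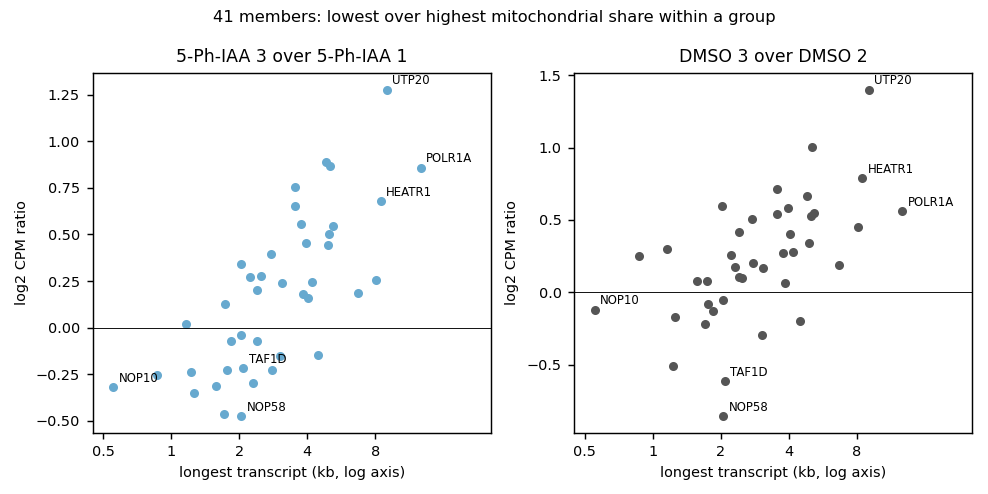
Log2 ratio of CPM between the libraries with the lowest and the highest mitochondrial share, against the longest transcript in kb on a log axis, for the 41 genes with 5-Ph-IAA (left) and with DMSO (right). Long genes such as UTP20 tend to lie above 0 and short ones such as NOP10 below it, with r = 0.74 on the left and 0.58 on the right. Exceptions in both panels include RRP12, which is long and lies below 0, and FBL, which is short and lies above it.

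Other genes of the same pathway, listed apart from the 41, were read in the combination against DMSO. Of all genes tested there, 6.24% rose and 6.89% fell. Of 43 further small subunit factors, 5 rose and 2 fell, with a median of 0.27. UTP3 (0.87 ± 0.14, edgeR adjusted p = 0.00251) had 105, 125 and 116 CPM in the combination and 68.1, 56.1 and 64.8 CPM with DMSO. RCL1 (0.61), IMP3 (0.62), WDR46 (0.42) and DDX49 (0.49) also rose, and UTP18 (-0.50) and KRR1 (-0.40) fell. Of 47 further large subunit factors, 7 rose and 1 fell, with a median of 0.23. SBDS, which helps to release the anti-association factor EIF6, had 90.2, 106 and 106 CPM in the combination and 59.8, 71.4 and 52.9 CPM with DMSO (0.71, edgeR adjusted p = 0.00686). SURF6 (0.54) and REXO4 (0.66) rose with it, and the AAA ATPase gene NVL (-0.43) fell. Of 15 further RNA polymerase I genes, 2 rose, POLR2L (0.67) and POLR1C (0.50), both subunits shared with other RNA polymerases, and 0 fell.

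The factors that assemble snoRNPs and the RNases that trim rRNA were mixed (all genes 6.24% higher, 6.89% lower). Of 10 snoRNP assembly factors, NOPCHAP1 rose (0.64, edgeR adjusted p = 0.0264) and PIH1D1, a subunit of the R2TP chaperone, fell (-0.76, edgeR adjusted p = 0.00292). PIH1D1 had 46.1, 49.6 and 42.1 CPM in the combination and 78.6, 80.9 and 74.6 CPM with DMSO. Of 23 genes of the RNA exosome and RNase MRP, POP4 (0.68) and EXOSC4 (0.63) rose, and EXOSC8 (-1.51), EXOSC9 (-0.79) and RPP25 (-0.73) fell. EXOSC8, a ring subunit of the exosome, had 31.6, 32.3 and 24.8 CPM in the combination, 57.4, 46.8 and 45.5 CPM with ATRi, 68.3, 77.0 and 52.7 CPM with 5-Ph-IAA and 76.8, 110 and 65.2 CPM with DMSO. All combination libraries stood below the other 9, and the change over DMSO (edgeR adjusted p = 0.00116) was larger in size than that of any of the 41 members.

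Of 7 genes listed for the 5S particle and MDM2, 3 rose in the combination (all genes 6.24%) and 0 fell (all genes 6.89%). CDKN1A (p21, 3.24 ± 0.19, edgeR adjusted p = 6.23e-06), MDM2 (2.05 ± 0.22, edgeR adjusted p = 0.000213) and RPS27L, a paralogue of a small subunit protein, (1.62, edgeR adjusted p = 0.00352) were the 3. MDM2 had 490, 573 and 620 CPM in the combination and 142, 110 and 155 CPM with DMSO. The rise was not particular to the combination. With ATRi alone over DMSO, 1 of the 7 was called higher (all genes 0.0665%), and the largest log2 fold change was 1.80. With 5-Ph-IAA alone over DMSO 0 were called, and the largest was 1.00. RPL5 (-0.07 ± 0.21) and RPL11 (0.07 ± 0.25), the proteins of the particle itself, were not called. A part of the particle in these changes was not tested. RPL11 had 1019, 1203 and 847 CPM in the combination and 926, 1283 and 723 CPM with DMSO, with the DMSO libraries spread wider than the groups differed.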

How the data were processed

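Per the submitters' processing notes, the authors used Salmon 1.10.1, STAR 2.7.9a, Trim Galore 0.6.7 and SAMtools 1.17 on build GRCh38.p14. The deposited table holds Salmon's estimated counts per gene for 12 libraries, made by the authors and not normalized. Per the labels' protocols, poly(A) RNA went into a directional kit. No source used here gives the annotation release or the strand setting of the counting, so reads of overlapping or antisense genes, such as snoRNAs within their host genes, could not be told apart. Of the 41 genes, 11 had a value over 0.01 from a whole number, and NOP56, NPM1 and RRN3 had one in all 12 libraries, so reads shared with near-identical copies could be split.

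Estimated counts were rounded. Genes were kept by filterByExpr (minimum count 10, minimum total 15) and tested with edgeR 4.0.16 (R 4.3.3): TMM scaling, 1 quasi-likelihood model of all 12 libraries, 6 contrasts, Benjamini-Hochberg adjustment over 18049 genes, threshold 0.05. SE is the log2 fold change divided by the root of F. Libraries of a group differed by more than sampling noise. Alternatives were other scaling factors, filters, DESeq2 1.42.0, limma-voom 3.58.1, a set block, a mitochondrial covariate and leaving out each library.

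The members and lists were chosen with earlier results of these data known. Values in each combination and DMSO library are given for the smallest p and highest level per length in each role. Those with ATRi and 5-Ph-IAA are given for some of these genes only. UTP14A, BYSL and UTP20, and the list genes beyond the 3 smallest p values of each list, were named after their values were seen. Same-set libraries had correlations of deviations from -0.09 to 0.76 over 18 pairs, and of the pairs of groups compared here only the combination and 5-Ph-IAA had all 3 above 0.1 (0.37, 0.18 and 0.54). Positions and promoters are from RefSeq GRCh38.p14, lengths and snoRNAs from GENCODE 29. One gene of a list is not reported here.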

Additional observations from a re-analysis of the deposited data

How the results depend on the processing

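The number of members called higher in the combination against DMSO was 6. It was 2 with total counts, 1 with no count filter, 12 with the replicate block on set, 20 with the mitochondrial covariate, 2 with only the compared groups, and 1 to 8 with 1 library left out. In every alternative run for that comparison no member was called lower. Against 5-Ph-IAA, where 1 was called, it was 3 with upper quartile factors, 0 with no count filter, 3 with the stricter filter, 5 with DESeq2, 9 with the replicate block, 17 with the mitochondrial covariate, 0 with only the compared groups, and 0 to 1 with 1 library left out. Against ATRi, where 0 were called, it was 1 with upper quartile factors, 1 with the stricter filter, 2 with DESeq2, 4 with the replicate block and 9 with the mitochondrial covariate. For each agent alone and the interaction it was 0 throughout. Shares of all genes called higher moved too. Against DMSO the share was 6.24%, 5.48% with total counts, 2.03% with no count filter and 4.47% with only the compared groups. It was 11.7% with the block and 17.6% with the covariate. Against 5-Ph-IAA it was 4.38%, 4.54% with upper quartile factors, 1.34% with no count filter and 5.16% with the stricter filter. It was 2.33% with only the compared groups, 6.31% with DESeq2, 9.15% with the block and 15.1% with the covariate. Against ATRi it was 1.63%, 1.74% with upper quartile factors and 2.16% with the stricter filter. It was 3.72% with DESeq2, 5.02% with the block and 8.58% with the covariate. In the combination against DMSO, UTP20 changed sign, to 0.016 with upper quartile factors, 0.0029 with the stricter filter, 0.063 with limma-voom, 0.028 with the replicate block and 0.50 with the mitochondrial covariate (edgeR adjusted p = 0.0225), and ran from -0.32 to 0.31 with 1 library left out. Leaving out 1 library also moved TAF1D between -0.27 and 0.045, RPL5 between -0.23 and 0.14 and RPL11 between -0.12 and 0.31, and RPL11 was -0.12 with the mitochondrial covariate. The cause of these changes was not tested. As for pairing by set, 3 of the 6 libraries of the combination and DMSO correlated best with their own number. It was 4 of the 6 for the combination and ATRi. Over all pairs of groups, same-set libraries had a median correlation of 0.38 and libraries of different sets -0.21. The lowest same-set value was -0.08 for the combination and DMSO and -0.01 for the combination and ATRi, so sets went together only in part. With 3 libraries a group, the median SE of a member in the combination against DMSO was 0.15.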

Other observations

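Genes of the MYC and MAX network, whose proteins bind CACGTG or compete for MAX, were read in the combination against DMSO. Of 12 listed genes 11 were tested, and 1 rose (all genes 6.24%) and 1 fell (all genes 6.89%). MXD1, a MAX partner that opposes MYC, rose, with 13.3, 11 and 16.7 CPM in the combination and 5.23, 8.29 and 6.41 CPM with DMSO (1.04, edgeR adjusted p = 0.0171). MXD3, of the same family, fell, with 11, 9.52 and 5.72 CPM in the combination and 25.3, 24.5 and 20.2 CPM with DMSO (-1.42, edgeR adjusted p = 0.0113). MYC was not called. It had 225, 219 and 324 CPM in the combination and 204, 88.6 and 237 CPM with DMSO, so the groups overlapped (0.54 ± 0.39, edgeR adjusted p = 0.423). Without 1 library its value lay between 0.22 and 0.80.

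Noncoding host genes of snoRNAs, such as GAS5 and the SNHG genes, had 0 of 15 called in the combination against DMSO (all genes 13.1%). Their median was 0.03, with a range of -0.53 to 0.58. At an unadjusted p under 0.05 there was 1, against 26.8% of all genes.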
